A study of Mus musculus with 16 samples.

Results

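Accessible chromatin of hematopoietic stem and progenitor cells (HSPCs) that lacked p300 was compared with that of HSPCs that had it, in all 16 ATAC-Seq libraries of the series. The members were chosen by genotype label: the 8 libraries of P300KO and P300KO_TET2KO stood against the 8 libraries of WT and TET2KO. ATAC-Seq marks DNA that a transposase can reach, and each library was available as a list of called peaks on mm10. Libraries were compared within 4 strata, given by Tet2 status and by replicate pair (replicates 1 and 2, or 3 and 4), so that each stratum held 2 libraries without p300 and 2 with p300. Replicate pairs were kept apart because a pooled list is named in the labels of replicates 1 and 2 alone.

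All mice carried floxed Ep300 (Ep300 fl/fl) and all were given poly(I:C), which switches on the interferon-responsive Mx1 promoter. WT mice were Ep300 fl/fl without Cre, and P300KO mice were Mx1-Cre;Ep300 fl/fl. TET2KO mice were Ep300 fl/fl;Tet2-/- without Cre, and P300KO_TET2KO mice were Mx1-Cre;Ep300 fl/fl;Tet2-/-. The Mx1-Cre transgene was thus carried by every library without p300 and by no library with p300, so that loss of p300 and presence of Cre cannot be told apart in these libraries. Deletion by Mx1-Cre acts in marrow cells and in other interferon-responsive tissues of the same mouse, and Tet2-/- was carried in every cell. Mice were on a C57BL/6 background and of both sexes, and each library held sorted HSPCs of a pair of age-matched mice of 1 genotype. Cell type shares and accessibility per cell cannot be told apart in such pooled samples.

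p300, the product of Ep300, is an acetyltransferase that modifies histones and other proteins and is recruited to enhancers and promoters by transcription factors. Its close relative CBP has overlapping activity. In blood progenitors, factors such as GATA1, GATA2, MYB, C/EBP and RUNX1 are among those known to work with these coactivators. Tet2 oxidises methylated cytosine, and its loss is frequent in myeloid disease.

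Lists of replicates 1 and 2 held 86039 to 110055 peaks, and those of replicates 3 and 4 held 130610 to 137335. Read depth is not given in the lists, so the strongest 50000 peaks of each library, by the −log10 p of the peak caller, were ranked on a percentile scale on which 100 is the strongest peak and 0 means no peak in the list. WT replicate 1 stood apart: its 50000th peak had a −log10 p of 4.11, the lowest of all, and it had a peak in 34426 of the tested regions against 41479 to 45677 in the other 15 libraries. Its mean percentile over tested regions was 44.03, against 48.1 to 50.6 in the others. A promoter peak of Kit, the receptor for stem cell factor, was present in 16 of 16 lists at a median percentile of 91.3. The promoter region of Ep300, the deleted gene, was in 16 of 16 lists with a difference of 1.56 ± 1.03 (SE) points without minus with p300, and a promoter peak does not show whether an exon was deleted. Promoter peaks of Cd34, Flt3 and Meis1 were also in 16 of 16 lists. Ly6a, which encodes the stem cell antigen Sca-1, had one in 6 lists and Mecom in 10, at median percentiles of 0 and 9.73. Of markers of other lineages, Pax5 had a promoter peak in 16 lists and Ltf in 11. No region at the promoters of Cd3e, Cd3g, Ly6g, Hbb-bs or Hba-a1, markers of T cells, neutrophils and red cells, was found in as many as 4 lists.

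Regions moved in both directions without p300. Merging the 16 lists gave 79807 regions, of which 48123 had a peak in at least 8 lists and were tested. The difference without minus with p300 had the same sign in all 4 strata in 6796 regions that ranked higher without p300 (14.1%) and in 4439 that ranked lower (9.22%). Some regions would share a sign in 4 strata without any effect of p300, and these counts were not tested. With limma across all tested regions, with stratum in the model and Benjamini-Hochberg adjustment, 559 regions rose (1.16%) and 625 fell (1.3%) at an adjusted p under 0.05. Of these, 538 and 595 also had the same sign in all 4 strata. Leaving out 1 library in turn gave 251 to 906 regions that rose, with the fewest without TET2KO replicate 4 and the most without WT replicate 2. It gave 287 to 1129 that fell, with the fewest without WT replicate 3 and the most without WT replicate 1. Of the 559 and 625 regions, 204 and 390 were in all 16 lists. A further 295 and 139 were in all 8 lists of the side where they ranked higher and in fewer of the other. Such regions met the minimum of 8 lists through 1 side alone, and those with few peaks on the other side had to differ. Their values are therefore given below as a description, without a test. With only regions in all 16 lists tested, 205 rose and 408 fell. All 8 libraries without p300 lay above all 8 with p300 in 71 regions (0.148%) and below them in 74 (0.154%). The median difference over all tested regions was 0.567 percentile points, and 57.3% of regions had a positive difference. An adjusted p under 0.05 went with a median difference of 20.8 points in regions that rose and -19.1 points in regions that fell.

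The counts rested on the lists and on the pooling of strata. When a peak had to cover at least 50% of its region, 88 regions rose and 71 fell. Within replicates 1 and 2 alone, and in P300KO against WT alone, limma called 0 regions. At an unadjusted p under 0.05 the former had 2494 regions higher and 1455 lower, and the latter 2861 higher and 2117 lower. Without the 4 Tet2-intact libraries of replicates 1 and 2, which include WT replicate 1, 1104 regions rose and 1362 fell. Subtracting the mean percentile of each library gave 480 regions that rose and 951 that fell, and 4992 and 6935 regions with the same sign in 4 strata.

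**Figure D1:**
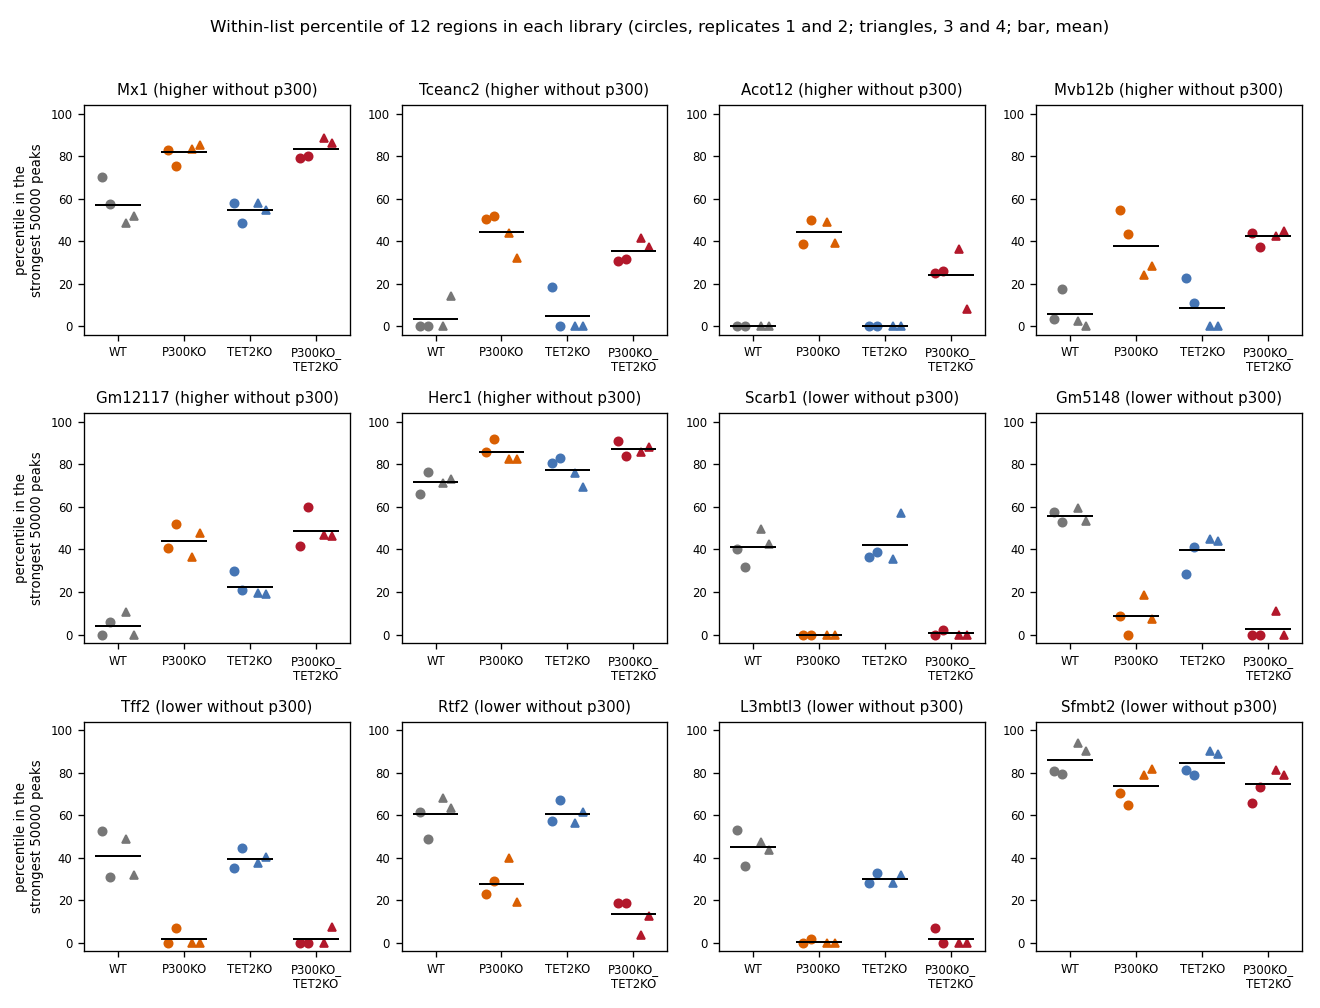
Percentile of 12 regions (y axis, 0 to 100, in the strongest 50000 peaks) in each of the 16 libraries, grouped by genotype on the x axis. The first 6 panels in reading order show regions that ranked higher without p300 and the last 6 regions that ranked lower, with circles for replicates 1 and 2, triangles for replicates 3 and 4 and a bar for the mean of 4 libraries. For Mx1 the 8 libraries without p300 sit between 75.2 and 88.3 and the 8 with p300 between 48.3 and 69.996.

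The lowest p among all regions that rose belonged to the promoter of Mx1 (chr16:97462592-97464459), an interferon-induced gene of the GTPase class. It ranked at 69.996, 57.3, 48.3 and 51.9 in WT replicates 1 to 4 and at 57.9, 48.7, 57.8 and 54.8 in TET2KO. It ranked at 82.95, 75.2, 83.4 and 85.2 in P300KO and at 79.2, 79.97, 88.3 and 85.95 in P300KO_TET2KO. The groups did not overlap, and the difference was 26.7 ± 2.72 (SE) points (limma adjusted p = 7.29e-05). The same promoter drives the Cre transgene, so peaks of the gene itself and of transgene copies cannot be told apart. A region 15.9 kb from the Mx1 start had a difference of 16.1 ± 5.51 (SE) points (limma adjusted p = 0.118), and one at 16.7 kb a difference of 0.915 ± 4.78 (SE) points.

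The reference sequence around the summits of regions that carry these results is given to show what strings they hold, 100 bp either side of the summit on the plus strand of the RefSeq GRCm38 genome, the assembly of mm10. Mx1 is shown as the region with the lowest p, with its match to CCNCACCC, the Klf Sp string, in capitals. Mvb12b, Herc1, Cebpe, Foxo1 and Kit are shown as non-promoter regions that ranked higher without p300 and hold more than 1 Gata string, AGATAA or TGATAA on either strand, in capitals. Rnls, Mreg and Zfp423 are shown as non-promoter regions that fell and hold a Myb string (CAACGG or CAACTG or TAACGG or TAACTG) on either strand, in capitals. The Kit region lies beyond the distance used for genes and was chosen after its values were seen.
Mx1 (chr16:97462886-97463086): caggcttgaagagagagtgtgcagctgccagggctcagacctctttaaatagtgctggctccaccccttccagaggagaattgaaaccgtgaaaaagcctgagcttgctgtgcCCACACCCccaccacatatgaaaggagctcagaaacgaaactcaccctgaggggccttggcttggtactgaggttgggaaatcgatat
Mvb12b (chr2:33843252-33843452): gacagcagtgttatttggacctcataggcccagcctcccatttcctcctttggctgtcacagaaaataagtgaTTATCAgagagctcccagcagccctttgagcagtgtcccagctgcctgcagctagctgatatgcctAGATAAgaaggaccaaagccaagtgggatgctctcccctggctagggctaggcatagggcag
Herc1 (chr9:66295087-66295287): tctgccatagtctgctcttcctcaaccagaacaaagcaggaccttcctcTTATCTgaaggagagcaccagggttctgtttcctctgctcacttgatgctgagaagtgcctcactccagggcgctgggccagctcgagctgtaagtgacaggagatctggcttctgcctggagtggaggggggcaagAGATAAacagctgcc
Cebpe (chr14:54705908-54706108): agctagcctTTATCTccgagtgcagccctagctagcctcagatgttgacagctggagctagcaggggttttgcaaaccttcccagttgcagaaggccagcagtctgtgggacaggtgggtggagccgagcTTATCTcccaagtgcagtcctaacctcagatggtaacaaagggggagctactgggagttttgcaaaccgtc
Foxo1 (chr3:52308993-52309193): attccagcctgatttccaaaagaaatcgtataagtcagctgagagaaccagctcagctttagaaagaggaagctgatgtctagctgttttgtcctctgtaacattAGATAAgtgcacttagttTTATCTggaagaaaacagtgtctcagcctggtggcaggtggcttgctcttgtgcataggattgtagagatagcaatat
Kit (chr5:75460575-75460775): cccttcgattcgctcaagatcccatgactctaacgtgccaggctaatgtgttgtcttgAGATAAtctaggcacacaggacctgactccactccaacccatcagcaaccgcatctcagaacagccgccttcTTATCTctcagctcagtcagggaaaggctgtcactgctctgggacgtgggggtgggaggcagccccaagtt
Rnls (chr19:33222922-33223122): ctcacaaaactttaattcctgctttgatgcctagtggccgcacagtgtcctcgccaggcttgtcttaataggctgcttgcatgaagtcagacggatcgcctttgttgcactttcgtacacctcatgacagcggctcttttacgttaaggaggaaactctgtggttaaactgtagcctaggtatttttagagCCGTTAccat
Mreg (chr1:71957027-71957227): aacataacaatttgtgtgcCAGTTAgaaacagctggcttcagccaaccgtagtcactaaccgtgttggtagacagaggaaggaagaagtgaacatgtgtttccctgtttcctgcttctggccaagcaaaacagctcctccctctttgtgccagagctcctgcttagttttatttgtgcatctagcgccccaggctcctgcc
Zfp423 (chr8:87708253-87708453): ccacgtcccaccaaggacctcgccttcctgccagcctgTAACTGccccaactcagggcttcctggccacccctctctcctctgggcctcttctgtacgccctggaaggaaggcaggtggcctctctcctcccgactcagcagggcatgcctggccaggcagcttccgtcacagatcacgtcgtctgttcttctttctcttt

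Of the other 11 regions named among those higher without p300, 7 were intronic. A region in an intron of Ssbp2, which encodes a single-stranded DNA-binding protein, had no peak in any of the 8 lists with p300. It reached the minimum of 8 lists only through the libraries without p300, so that it had to differ. Its nearest protein-coding start, 129 kb away, was that of Acot12, an acyl-CoA thioesterase (chr13:91611578-91612304). Without p300 its lowest, median and highest percentile were 8.31, 37.6 and 49.8, and the difference was 34.01 points. The region in Mvb12b (chr2:33843028-33843826), which encodes a subunit of the ESCRT-I sorting complex, had 23.9, 42.9 and 54.5 as lowest, median and highest percentile without p300 and 0, 2.94 and 22.8 with p300. It had a peak in 8 lists without p300 and 5 with it, and the groups differed by 32.8 points. A region in an intron of Tceanc2 (chr4:107167663-107168255) had a difference of 35.8 points, with a peak in 8 lists without p300 and 2 with it.

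Strong regions rose too. The region 55.3 kb from Herc1, a ubiquitin ligase gene (chr9:66294746-66295677), was in 16 of 16 lists and ranked at a mean of 86.4 ± 3.56 without p300 and 74.5 ± 5.65 with p300 (SD, n = 8 each). These values overlapped, with a difference of 11.96 ± 1.83 (SE) points (limma adjusted p = 0.00173). The region in an intron of Nelfa, a subunit of the pausing factor NELF (chr5:33920664-33921732), ranked at 70.9 ± 6.78 and 46.6 ± 18.2 (SD, n = 8 each), and WT replicates 1 and 2 at 17.2 and 20.7 were the lowest. The region near Tbc1d14, an autophagy regulator (chr5:36597448-36598452), separated the groups with a difference of 14.1 ± 2.26 (SE) points (limma adjusted p = 0.00258). Rpia and Taldo1 encode enzymes of the non-oxidative pentose phosphate pathway. The region 61.2 kb from Rpia (chr6:70730805-70731294) had a peak in 8 lists without p300 and 1 with it, and differed by 29.1 points. The promoter region of Taldo1 (chr7:141394137-141394559), in 8 and 6 lists, differed by 31.1 points. Regions at Zfp106 (29.1 points), Naip6 (26.4 points) and Gm12117 (33.2 points) were also in 8 lists without p300, and in 6, 4 and 6 with it.

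A region 25.5 kb from the start of Scarb1, the receptor for high-density lipoprotein (chr5:125268099-125268839), met the minimum of 8 lists only through the libraries with p300. With p300 it ranked at 40.2, 31.6, 49.7 and 42.7 in WT and at 36.2, 38.998, 35.6 and 57.2 in TET2KO. P300KO had no peak there in 4 of 4 lists, and in P300KO_TET2KO 1 list had one, at 1.94. The difference was -41.3 points. The region 9.69 kb from Tff2, a trefoil factor (chr17:31153476-31154498), had 30.97, 38.8 and 52.7 as lowest, median and highest percentile with p300 and 0, 0 and 7.37 without it, with a peak in 3 of the 8 lists without p300. The region near Gm5148 (chr3:37804241-37804673) was in 8 lists with p300 and 4 without, with a difference of -42.1 points on this scale.

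Among the other regions that ranked lower, the region 146 kb from L3mbtl3 (chr10:26520597-26521802), a reader of methylated lysine, ranked at a mean of 1.05 ± 2.39 without p300 and 37.6 ± 9.35 with p300 (SD, n = 8 each), and was in 2 and 8 lists. The region 55.7 kb from Sfmbt2 (chr2:10314536-10315598), of a related family, was strong in all lists and differed by -10.96 ± 1.37 (SE) points. The region 16.7 kb from Ing1 (chr8:11574701-11576349), a subunit of a histone deacetylase complex, ranked at 25.9 ± 9.91 and 61.8 ± 8.42 (SD, n = 8 each). Ing1 did not overlap between groups, whereas Sfmbt2 did. The promoter region of Rtf2 (chr2:172437220-172437927), a replication termination factor, differed by -40.01 ± 4.91 (SE) points. Regions nearest to Rnls (-19.6 ± 2.47 (SE) points), Mreg (-36.4 ± 4.83 (SE) points), Zfp423 (-32.1 ± 4.28 (SE) points), Nt5m (-7.99 ± 1.06 (SE) points) and Ninj2 (-23.6 ± 3.20 (SE) points) fell too, each in 16 of 16 lists. Of these 5, only the Nt5m region overlapped between groups.

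The 24 regions named above, of which 12 were in all 16 lists, were past the threshold of limma with stratum in the model. They were chosen among regions with the same sign in all 4 strata. In all of them the 2 libraries without p300 lay beyond the 2 with p300 in each of the 4 strata. The tests within replicates 1 and 2 alone, and within P300KO against WT alone, called none of the 24. Each of these tests used 2 of the 4 strata, so the sign there was fixed by the choice of regions.

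Regions that rose and regions that fell differed in where they lay and what they held. Promoters, taken as within 3 kb of any annotated start, made up 36.7% of regions that rose, 28.0% of those that fell and 46.4% of all tested regions. Introns held 37.7% of regions that rose and intergenic DNA 22.9%, against 33.6% and 34.4% of regions that fell. Of the regions that rose 36.5% were in 16 of 16 lists, against 62.4% of those that fell and 58.5% of all tested. Regions that rose had a lower median percentile over all libraries, at 32.2, than those that fell, at 49.96. Of the 559 that rose 295, and of the 625 that fell 139, had met the minimum of lists through 1 side alone. The filter thus enters both the share in all lists and the median percentile. Calls were spread over the genome, with at most 5 in a window of 1 Mb. By chromosome, 0.601% to 1.43% of regions rose and 0.637% to 1.92% fell, leaving out chromosome Y with 10 tested regions and no call.

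No difference was called between promoters as a class and other regions. The mean percentile of promoter regions exceeded that of other regions by 21.3 ± 2.49 points without p300 and 21.6 ± 2.85 points with p300 (SD, n = 8 each). The stratified difference was -0.396 points (two-sided exact permutation within strata, p = 0.310). The possible arrangements of labels within strata allow a p of 0.00154 at the lowest. Ranking peaks by fold enrichment instead gave -3.42 points (exact permutation p = 0.00926).

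Regions holding a Gata string ranked higher without p300 relative to those without the string. GATA factors govern erythroid, megakaryocytic and mast cell genes, and GATA2 is needed in stem cells. The string AGATAA or TGATAA, on either strand within 100 bp of the summit, was in 4103 of 25813 non-promoter regions (15.9%). In each library the mean percentile of regions lacking the string was subtracted from that of regions holding it. This value lay between -2.47 and 2.58 points without p300 and between -5.83 and 0.814 with p300, with means of 0.3004 ± 1.88 and -2.60 ± 2.91 (SD, n = 8 each). The groups overlapped across strata, and in each genotype replicates 3 and 4 had lower values than replicates 1 and 2. Within strata the difference was 2.34 and 2.55 points in the Tet2-intact libraries of replicates 1 and 2 and of replicates 3 and 4. It was 1.19 and 5.50 points in the Tet2-null libraries of the same pairs. The mean of the 4 was 2.90 points (two-sided exact permutation within strata, p = 0.00154, adjusted over 17 strings 0.0131), the lowest p that the arrangements allow. The adjusted p was 0.0525 when a peak had to cover at least 50% of its region, 0.140 with the replicate pair left out and 0.0525 without the 4 Tet2-intact libraries of replicates 1 and 2 (exact permutation in each), with differences of 2.80, 2.90 and 3.08 points.

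The Gata string was frequent in regions that rose. It was in 156 of 354 non-promoter regions that rose (44.1%), in 31 of 450 that fell (6.89%) and in 15.7% of those not called. Of all 559 regions that rose, promoters included, 295 had met the minimum of lists through the libraries without p300 alone. The shares of called regions here are therefore a description, without a test. By number of strings, regions with none rose in 0.912% of cases and fell in 1.93%. With 1 string 3.26% rose and 0.774% fell, with 2 strings 7.26% rose and 0.680% fell, and with 3 or more strings 6 of 43 rose and none fell. The median difference went from 0.888 points with no string to 2.66 with 1, 5.89 with 2 and 7.85 with 3 or more. Of promoter regions holding the string 4.32% rose, against 0.624% of those lacking it. The shares of promoter regions that fell were 0.841% with the string and 0.779% without it. Non-promoter regions with both a Gata and a Spi1 string (AAGGAAGT or AGGGAAGT or GAGGAAGT or GGGGAAGT) had a median difference of 3.79 points, against 2.77 with Gata only and 0.968 with Spi1 only.

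**Figure D2:**
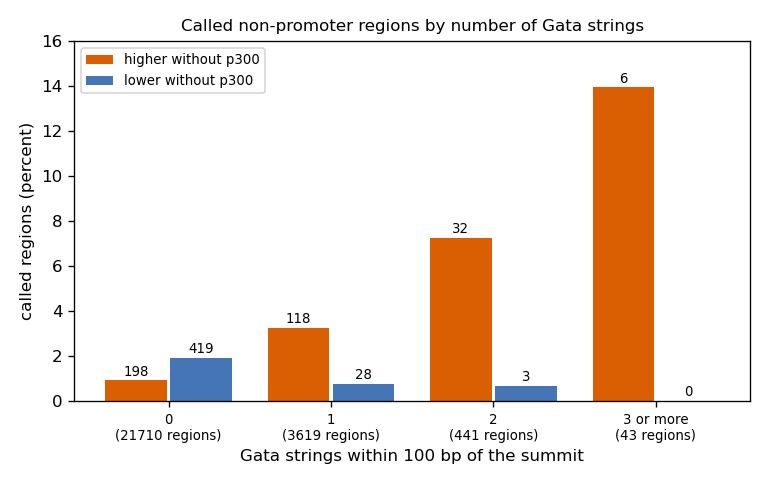
Percent of non-promoter regions called higher or lower without p300 (y axis) by the number of Gata strings within 100 bp of the summit (x axis, with the number of regions). Numbers over the bars are called regions, and regions with 2 strings rose in 7.26% of cases against 0.912% with none. The shares are a description, without a test.

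Values for base composition and for lineage genes are given beside the Gata difference. The median difference of non-promoter regions went from 1.89 points in the bin of windows lowest in GC content (26.9% to 45.8%) to 0.336 in the highest of 5 bins (56.2% to 83.1%), and the share holding a Gata string went from 24.6% to 7.29%. Taken within these bins, the Gata difference was 2.64 points (exact permutation, adjusted p = 0.0175). Among 15 erythroid genes tested, 0 passed limma and the median gene difference was 1.72 points against 0.804 over all genes, and of their 59 regions 3 rose and none fell. Over all regions assigned to genes, 1.18% rose and 1.14% fell. The mean level of these 15 genes lay between 46.7 and 49.8 without p300 and between 40.8 and 50.1 with p300. The 7 mast cell, basophil and eosinophil genes tested had a median difference of 4.82 points and 0 passed, while of their 23 regions none rose and 1, nearest to Hdc, fell by 18.1 ± 4.68 (SE) points (limma adjusted p = 0.0403). Gata1, Hbb-bs and Hba-a1 had no tested region. The part of cell composition in the Gata difference was not tested.

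Of 17 strings, 8 passed, 3 of them higher and 5 lower without p300, each with the same sign in 4 of 4 strata. The Cebp string (TTACNNAA or TTGCNNAA), of the C/EBP factors of myeloid cells, went with 1.52 points (exact permutation, adjusted p = 0.0459). The NFY string CCAAT went with 0.560 points (exact permutation, adjusted p = 0.0157). The Klf Sp string (CCNCACCC or CCNCGCCC) went with -0.717 points (exact permutation, adjusted p = 0.0131), but within bins of GC content its difference was -0.102 points (exact permutation, adjusted p = 0.663). The Cebp difference within these bins was 1.35 points (exact permutation, adjusted p = 0.0525), and the other 6 strings passed there as well. The E-box CACGTG went with -0.959 points (exact permutation, adjusted p = 0.0157) and the Cre string TGACGTCA, bound by CREB factors, with -2.74 points (exact permutation, adjusted p = 0.0157), the latter in 94 regions. The Irf string of interferon regulatory factors, in 867 regions, went with -0.802 points (exact permutation, adjusted p = 0.0262). The Myb string, of the progenitor factor MYB, went with -0.547 points (exact permutation, adjusted p = 0.0375), and 146 of 5750 regions holding it fell (2.54%) against 1.52% of those lacking it.

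Strings of Spi1, Ets (CCGGAAGT), Tal1 (CAGATG), Runx (TGCGGTC or TGCGGTT or TGTGGTC or TGTGGTT), NFkB, Ap1 (TGACTCA or TGAGTCA), Stat (TTCNNNGAA), Hox Meis (TGACAG) and Ctcf did not pass. Their differences lay between -2.46 points for Ets (exact permutation, adjusted p = 0.0682) and 1.01 points for Ctcf (adjusted p = 0.487). Spi1 and Ets strings share letters and can overlap. No string passed when the replicate pair was left out of the strata, when a peak had to cover at least 50% of its region, or without the 4 Tet2-intact libraries of replicates 1 and 2, with 5, 6 and 8 strings at an unadjusted p under 0.05.

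**Figure D3:**
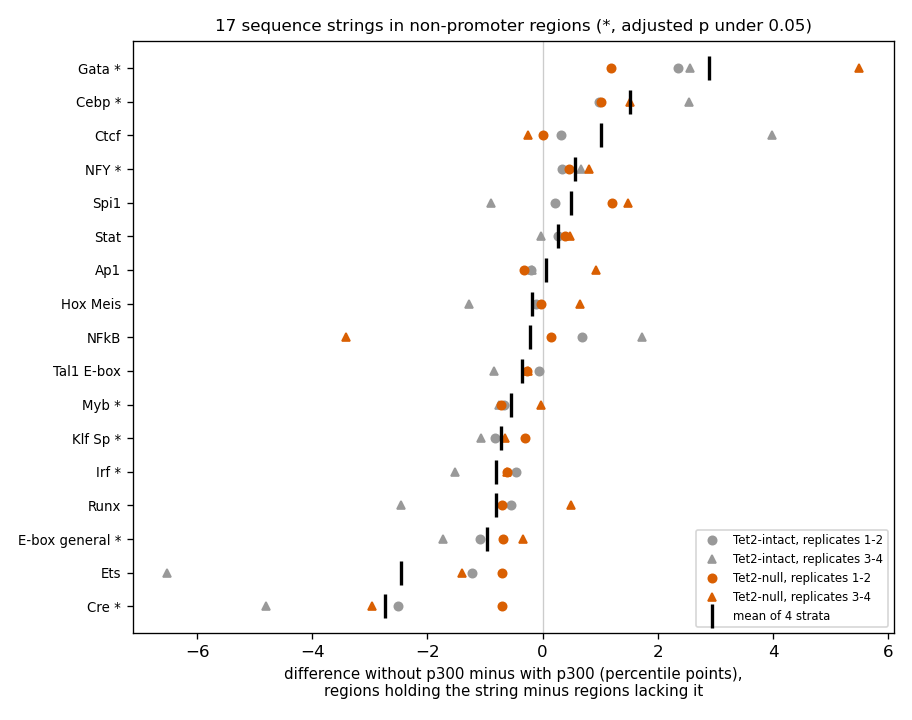
Difference without minus with p300 in percentile points (x axis) between non-promoter regions holding and lacking each of 17 strings (y axis), with 1 point per stratum and a bar for the mean of 4. The 4 points of Gata lie between 1.19 and 5.50, and stars mark the 8 strings with an adjusted p under 0.05.

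The Kit region shown among the sequences lies 114 kb from the Kit start (chr5:75460125-75460896). It ranked at 17.5, 26.7 and 41.3 as lowest, median and highest percentile without p300 and at 0, 0 and 5.31 with p300, where 3 of 8 lists had a peak, and the difference was 26.5 points. An intronic region of Ebf1, a factor of B cell commitment (chr11:44881122-44882046), went the other way. It ranked at 70.5, 42.8, 58.8 and 53.2 in WT, at 14.4, 39.1, 40.4 and 25.3 in TET2KO, and had 1 peak among the 8 lists without p300, with a difference of -41.4 points. Both lie more than 100 kb from a protein-coding start. Of 188 tested regions at such distances that were nearest to a list gene, 3 rose (1.60%) and 6 fell (3.19%), against 0.896% and 3.19% of all 3796 regions at such distances. Among the other 7, regions nearest to Il6 and Runx1 ranked higher without p300, and regions nearest to Gata3, Foxo1, Ccnd1, Tnfaip3 and Myc fell.

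To ask which genes had shifts over all their regions, percentiles were averaged over the tested regions whose nearest protein-coding start was that of a gene, within 100 kb. Of 15722 genes, 154 rose (0.98%) and 93 fell (0.592%) with limma. With library means subtracted 98 rose and 134 fell, and 4 rose and 1 fell when a peak had to cover at least 50% of its region. Leaving out 1 library in turn gave 44 to 246 genes that rose and 28 to 154 that fell. The fewest rose without TET2KO replicate 4 or P300KO_TET2KO replicate 3, and the fewest fell without TET2KO replicate 4. The most rose without WT replicate 2, and the most fell without WT replicate 1. With only regions in all 16 lists 55 rose and 66 fell. The median gene had 2 regions, and the median difference was 0.804 points. A region that rose was held by 503 genes and a region that fell by 475, of which 24 held both.

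The 10 genes with the lowest p among those that rose had 1 to 3 tested regions each, and for Naip6, Klc4, Swt1 and Mrgpra9 every region had met the minimum of lists through the libraries without p300 alone. Csf2rb2, a receptor chain for interleukin 3, rose by 15.1 ± 2.33 (SE) points (limma adjusted p = 0.00905), and Mgl2, a lectin of macrophages and dendritic cells, by 16.2 ± 1.95 (SE) points (limma adjusted p = 0.00137). The leukocyte receptor gene Lilra6 rose by 13.9 ± 2.06 (SE) points (limma adjusted p = 0.00624) while the inflammasome gene Naip6 differed by 26.4 points. Mx1 rose by 14.6 ± 2.21 (SE) points (limma adjusted p = 0.00744) over its 3 regions. Cep152, a centriole gene, had a difference of 12.7 ± 1.79 (SE) points (limma adjusted p = 0.00399), and Klc4, a kinesin light chain gene, of 29.5 points. Zfp106 (14.2 ± 1.79 (SE) points), Swt1 (33.5 points) and Mrgpra9 (19.7 points) complete the 10. When only regions in all 16 lists were kept, Mx1 and Mgl2 passed limma, and Csf2rb2 (10.2 points), Lilra6 (7.47 points), Cep152 (0.274 points) and Zfp106 (-0.667 points) did not. The difference of Mgl2 was -4.78 points when every peak was ranked. Csf2rb2, Lilra6, Naip6 and Mrgpra9 have near-identical neighbours among which short reads can be split, which was not tested.

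The 10 genes with the lowest p among those that fell had 1 to 6 tested regions each, and the only tested regions of Itgb2l, Gm17416 and Gm45021 had met the minimum of lists through the libraries with p300 alone. Cdh17, a cadherin gene, fell in 3 of its 3 regions, with a gene difference of -17.6 ± 2.03 (SE) points (limma adjusted p = 0.00137). Itga3, an integrin alpha chain, had a difference of -17.6 ± 2.81 (SE) points (limma adjusted p = 0.0105), and the integrin gene Itgb2l of -22.7 points. Ing1 had -9.19 ± 1.16 (SE) points over 4 regions and Tff2 -20.8 ± 2.33 (SE) points over 2. Arpp21 had 2 of 6 regions that fell and a gene difference of -13.1 ± 2.12 (SE) points, and E130114P18Rik had 4 of 6 and -14.1 ± 2.36 (SE) points. The gene models Gm17416, Gm9913 and Gm45021 differed by -26.7, -13.03 and -30.6 points. When only regions in all 16 lists were kept, Ing1, E130114P18Rik and Gm9913 passed limma, and Cdh17 (-5.97 points), Itga3 (-7.51 points), Arpp21 (-5.13 points) and Tff2 (-3.19 points) did not.

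Of 23 gene lists, 6 held a member that passed, 1 gene each, and with only regions in all 16 lists Mx1 and Kat5 of these 6 passed. The lists held 387 genes, and of all 15722 genes tested 0.98% rose and 0.592% fell. List medians lay between -0.684 points for neutrophil genes and 4.82 points for mast cell, basophil and eosinophil genes. Among 21 interferon-stimulated genes, Mx1 rose, and 7 of 21 had an unadjusted p under 0.05, each with a positive difference. Over all 15722 genes, 2017 had an unadjusted p under 0.05 with a positive difference and 885 with a negative one. Mx1, the gene that passed, is the one whose promoter also drives Cre. The list had a median of 3.76 points, against 0.804 over all genes, and was at a mean level of 48.5 to 52.4 without p300 and 42.4 to 50.5 with p300. Ifit1, an interferon-induced RNA-binding protein, had a gene difference of 9.30 ± 2.78 (SE) points (limma adjusted p = 0.0957), and its region at chr19:34656343-34657071 (15.8 kb from the start) differed by 30.1 points. Xaf1 had a gene difference of 8.18 ± 2.77 (SE) points (limma adjusted p = 0.133). Every mouse had been given poly(I:C), an inducer of interferon.

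In the Notch pathway 1 of 17 genes fell and none rose, and of its 109 regions 4 fell and 1 rose. Over all genes 0.98% rose and 0.592% fell, and over all regions assigned to genes 1.18% rose and 1.14% fell. Hes1, a transcriptional repressor and direct target of Notch, fell by 8.81 ± 1.92 (SE) points over 13 regions (limma adjusted p = 0.0343), and its difference was -6.81 points with only regions in all 16 lists (limma adjusted p = 0.0656). Its promoter region at chr16:30063448-30064490, 1.06 kb from the start, had 54.4, 69.5 and 74.6 as lowest, median and highest percentile with p300 and 37.9, 57.96 and 64.1 without. A region 80.3 kb from the start (chr16:30145229-30145951) had 16.5, 40.4 and 62.2 with p300 and 0, 0 and 15.8 without, where 3 of 8 lists had a peak. A region in Notch1 (chr2:26512992-26514127) fell by 5.10 ± 0.940 (SE) points, while the gene difference of Notch1 over 8 regions was -0.152 ± 1.99 (SE) points (limma adjusted p = 0.979). A region in an intron of Maml3, a coactivator of Notch, ranked lower without p300 and one in Notch3 higher.

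Of 19 stem cell genes 1 rose and of 16 hypoxia genes 1 fell, against 0.98% and 0.592% of all genes. Of 78 regions of the former 1 rose and 1 fell, and of 64 of the latter none rose and 1 fell, against 1.18% and 1.14% of all regions assigned to genes. Esam, an adhesion molecule of stem cells and endothelium, rose by 13.1 ± 2.76 (SE) points (limma adjusted p = 0.0322), and a region 10.4 kb from its start, inside Msantd2 (chr9:37517224-37518024), differed by 26.1 points. With only regions in all 16 lists the difference of Esam was 4.81 points (limma adjusted p = 0.343). Fgd5, a stem cell marker, had a gene difference of -8.83 ± 2.23 (SE) points (limma adjusted p = 0.0611), and its region at chr6:91971832-91973148 fell by 20.5 ± 2.88 (SE) points. Fgd5 was at -20.5 points, the value of this region, with only regions in all 16 lists (limma adjusted p = 0.00153). The hypoxia sensor Egln1 had a gene difference of -13.7 ± 2.77 (SE) points (limma adjusted p = 0.0264), and of -1.37 points with only regions in all 16 lists (limma adjusted p = 0.858). Its intronic region (chr8:124925641-124926465) ranked at a mean of 20.7 ± 14.9 without p300 and 59.2 ± 16.1 with p300 (SD, n = 8 each). Of the other hypoxia genes, Ndrg1 had a difference of 5.16 ± 1.57 (SE) points (limma adjusted p = 0.103).

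Among p300, CBP, other acetyltransferases and their partners, 1 of 20 genes passed, against 0.98% of all genes that rose and 0.592% that fell. It was Kat5, the acetyltransferase TIP60, with 8.93 ± 2.01 (SE) points (limma adjusted p = 0.0393). Crtc3, a CREB coactivator, had 5.70 ± 1.85 (SE) points (limma adjusted p = 0.118). Among 22 ribosomal protein genes the value of Rps15, -14.5 points, came from a region inside Dazap1, 10.3 kb from the Rps15 start. That region had a peak in all 8 lists with p300 and in 1 without, and so met the minimum of lists through the former alone. Keeping only regions in all 16 lists gave 0.403 points for Rps15, and ranking by fold enrichment gave -1.54 points for Kat5. The lists of progenitor transcription factors, chromatin regulators, the cell cycle and p53 held no gene that passed. In them Myb had 5.52 ± 1.92 (SE) points (limma adjusted p = 0.142), Ldb1 -6.44 ± 2.01 (SE) points (limma adjusted p = 0.108), Cdk4 -2.02 ± 0.569 (SE) points (limma adjusted p = 0.0824) and Trp53 8.09 ± 2.19 (SE) points (limma adjusted p = 0.0746).

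Among Ep300, Tet2, Dntt, Myb, Notch1 and the Hoxb genes no gene passed. Ep300 itself had a gene difference of 7.43 ± 2.88 (SE) points (limma adjusted p = 0.184) over 4 regions. Tet2 had 6.96 ± 1.74 (SE) points (limma adjusted p = 0.0593), and of its 4 regions the one 13.1 kb from the start (chr3:133463081-133463621), in 7 lists without p300 and 2 with it, differed by 21.5 points. Dntt had -2.91 ± 1.86 (SE) points (limma adjusted p = 0.424). Of the 8 Hoxb genes tested, which pattern the body axis and act in stem cells, 0 passed. Hoxb5 was at 12.9 ± 5.60 (SE) points (limma adjusted p = 0.233) and Hoxb2 at 6.995 ± 2.997 (SE) points (limma adjusted p = 0.228), and Hoxb1, Hoxb3, Hoxb4, Hoxb6, Hoxb8 and Hoxb9 lay between -3.63 and 4.001 points.

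Lymphoid and mature myeloid lists held no gene that passed. Of 69 regions of the T and NK list 1 rose and 3 fell, and of 48 of the B list 1 rose and 1 fell. Of 42 neutrophil regions 1 rose and 1 fell, and of 92 monocyte, macrophage and dendritic cell regions 3 rose and 1 fell. Over all regions assigned to genes, 1.18% rose and 1.14% fell. In the T and NK list the promoter region of Thy1 (chr9:44047023-44048139) had a peak in 8 lists without p300 and 3 with it, and ranked at 24.5, 29.5 and 39.2 without p300 and 0, 0 and 16.2 with p300 as lowest, median and highest. Regions at Lef1, Runx3 and Tcf7, factors of T cell development, fell. The sign of the Runx3 region was not the same in all strata, with 1.19 points in the Tet2-intact libraries of replicates 1 and 2. The Lef1 region was in 4 lists without p300 and 7 with it. The gene differences were 10.1 ± 2.94 (SE) points (limma adjusted p = 0.0896) for Thy1, -9.93 ± 3.49 (SE) points (limma adjusted p = 0.144) for Lef1 and -16.1 ± 4.60 (SE) points (limma adjusted p = 0.0852) for Nkg7. In the B list a region of Foxo1, in 8 lists without p300 and 2 with it, differed by 22.8 points, and one 17.3 kb from Ikzf1, in 7 and 8 lists, by -24.9 points. Of 14 neutrophil genes tested 6 had a positive and 8 a negative difference, with a median of -0.684 points. Of 13 megakaryocyte and platelet genes 8 were positive and 5 negative, with a median of 0.921.

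**Figure D4:**
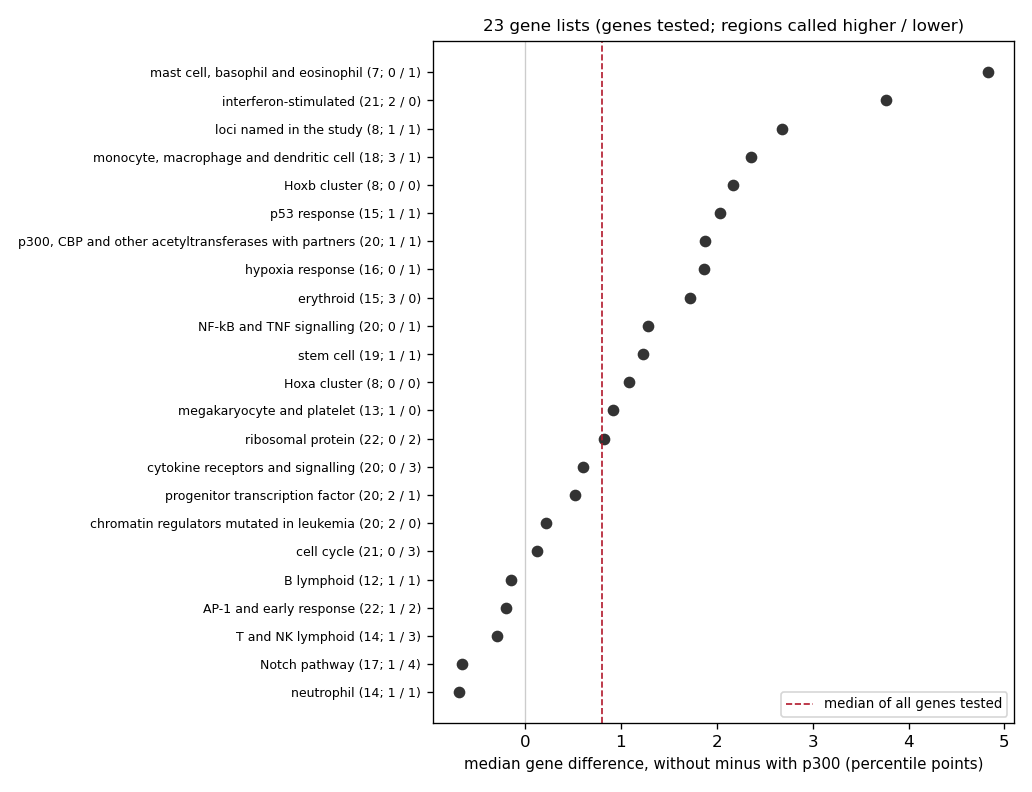
Median gene difference without minus with p300 in percentile points (x axis) of 23 gene lists (y axis), with the number of genes tested and of regions called higher and lower in brackets. The dashed line marks 0.804 points, the median of all genes tested, and the interferon-stimulated list lies at 3.76.

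Whether shifts recurred in libraries that had not been used to find them was asked by choosing regions in 8 libraries and measuring them in the other 8. Regions were chosen when both libraries without p300 lay beyond both with p300 in each of the 2 strata of 1 side. Replicates 1 and 2 gave 2556 regions higher and 1495 lower. In replicates 3 and 4 the mean percentile of the former minus that of the latter lay between -1.35 and 1.71 points in the 4 libraries without p300 and between -12.6 and -8.82 points in the 4 with p300. The difference was 10.6 points. In the reverse direction, 4051 and 4012 regions chosen in replicates 3 and 4 differed by 10.3 points in replicates 1 and 2. There the 4 libraries without p300 lay between 5.92 and 11.7 points and the 4 with p300 between -4.56 and 2.24 points.

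Across Tet2 status the shifts recurred too. The 2936 and 1985 regions chosen in P300KO against WT differed by 10.3 points in P300KO_TET2KO against TET2KO, and the 3404 and 2694 chosen in the latter by 12.02 points in the former. In all 4 cases the 4 libraries without p300 lay above the 4 with p300, and the two-sided exact permutation p was 0.0556, the smallest that 36 arrangements allow. Of the regions chosen as higher, 73.3% to 79.3% had a positive difference in the other 8 libraries, against 52.7% to 57.9% of all regions. Of those chosen as lower, 66.8% to 76.1% had a negative one, against 41.9% to 47.2%. The shifts of 2 strata, which share no library, had a Pearson r across the 48123 regions between 0.164 and 0.430. The highest was between the Tet2-intact and Tet2-null libraries of replicates 3 and 4.

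**Figure D5:**
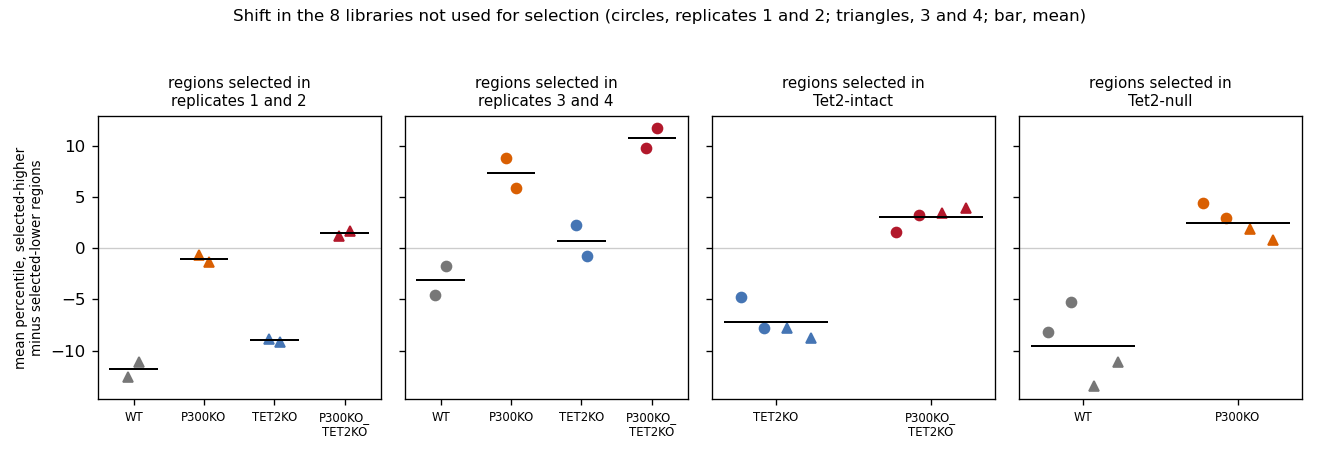
Mean percentile of regions selected as higher minus that of regions selected as lower (y axis, percentile points) in each of the 8 libraries not used for the selection, by genotype (x axis), with circles for replicates 1 and 2, triangles for replicates 3 and 4 and bars for means. In each of the 4 panels the libraries without p300 lie above those with p300, and in the first panel they lie between -1.35 and 1.71 against between -12.6 and -8.82.

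The effect of p300 was also compared between Tet2-intact and Tet2-null cells. An interaction term between p300 and Tet2 passed limma in 4 regions, each with a more negative difference in the Tet2-null libraries, and in 0 of 15722 genes, with 2787 regions and 920 genes at an unadjusted p under 0.05. In all 24 regions named above the interaction had an adjusted p of at least 0.853 (limma). A p over the threshold does not show that the effects were alike.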

How the data were processed

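ATAC-Seq was performed on HSPCs of 4 genotypes with 4 libraries each. Per the labels and methods, the authors trimmed reads with cutadapt (1.9.1), aligned them to mm10 with Bowtie2 (2.2.6), removed duplicates and called peaks in each library with MACS2 (2.1.0). The deposited lists give each peak a fold enrichment (a ratio to background) and the −log10 p and −log10 q of the peak caller. The q column was not used.

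Summits of 1 interval were collapsed to 1 peak, and the strongest 50000 peaks by −log10 p were kept and ranked per library as percentiles, so that lists of unequal length could be compared. Peaks were merged across the 16 lists, and regions in at least 8 lists were tested with limma 3.58.1 in R 4.3.3 (a trended prior, stratum and p300 as terms, Benjamini-Hochberg adjustment, threshold 0.05). Gene values were means over regions within 100 kb of the nearest protein-coding start (GENCODE M21 on GRCm38, the assembly of mm10). On 21 chromosomes 0 lists held a peak past a chromosome end. Promoter contrasts, strings and held-out shifts were tested by two-sided exact permutation of p300 labels within strata. Scripts used Python 3.11.15, numpy 2.4.6, pandas 2.3.3, scipy 1.17.1 and pysam 0.24.0, and the fits were tested on simulated data.

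The comparison, gene lists and strings were chosen with earlier results of these data known, and support nothing independently. Named were the 12 regions and 10 genes with the lowest p in each direction, up to 3 members per list, and Mx1, Ep300, Tet2, Myb, Notch1, Dntt and the Hoxb genes. Called regions of list genes, and those beyond 100 kb, were named after their values were seen. Alternatives were other list sizes, rankings, overlaps, library minimums and strata, and each library left out. Subtracting library means, omitting WT and P300KO replicates 1 and 2, and 5 bins of GC content were chosen after seeing the data. Per the labels, libraries are independent biological replicates.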

Additional observations from a re-analysis of the deposited data

Results flagged for a closer look

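In 4 regions the difference without minus with p300 changed with Tet2 status by an interaction term in limma. The difference in Tet2-null minus that in Tet2-intact libraries was -11.3 points (limma adjusted p = 0.0425) for the region nearest to 9530002B09Rik on chromosome 4 and -8.22 points (limma adjusted p = 0.0468) for that nearest to Igf2bp3 on chromosome 6. It was -8.42 points (limma adjusted p = 0.0219) for the region nearest to Alkbh8 on chromosome 9 and -9.61 points (limma adjusted p = 0.0425) for that nearest to Rtl10 on chromosome 16. All 4 regions were among the strongest peaks with p300, at a lowest percentile of 95.3.

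Single libraries lay far from the other 3 of their genotype in 15 of 108 groups of 4, by the ratio of the gap to the range, where about 1 in 20 groups is expected to do so by chance. Among regions that ranked higher without p300, these were Tceanc2 in WT replicate 4 (percentile 14.2) and TET2KO replicate 1 (18.4), and Gm12117 in TET2KO replicate 1 (29.99). They were also Rpia in WT replicate 2 (4.18) and P300KO_TET2KO replicate 2 (16.2), Zfp106 in TET2KO replicate 2 (28.4) and Naip6 in WT replicate 2 (5.63). Among regions that ranked lower, these were Scarb1 in TET2KO replicate 4 (57.2) and P300KO_TET2KO replicate 2 (1.94), Gm5148 in P300KO_TET2KO replicate 3 (11.1) and Ninj2 in P300KO_TET2KO replicate 2 (46.3). They were also Tff2 in P300KO replicate 2 (7.08) and P300KO_TET2KO replicate 4 (7.37), and L3mbtl3 in P300KO replicate 2 (1.63) and P300KO_TET2KO replicate 1 (6.80). Where the other 3 libraries had no peak, as for Scarb1 in P300KO_TET2KO, any peak stands apart.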

How the results depend on the processing

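Directions were kept in the 24 named regions under each alternative in which a region could be tested, which was 12 of 24 for regions in all 16 lists and for the strongest 30000 peaks, 22 of 24 for fold enrichment and for peaks covering at least 50% of the region, and 24 otherwise. In fits on some of the strata alone, the direction was fixed by the choice of regions. The counts moved, and the cause was not tested. Regions with the same sign in 4 strata numbered 3728 higher and 2899 lower among those in all 16 lists, 3888 and 2791 in the strongest 30000 peaks, 10288 and 5754 in the strongest 75000 and 12671 and 6874 over every peak. They were 6212 and 2627 when a peak had to cover at least 50% of its region, 4992 and 6935 with library means subtracted, and 502 and 415 when both libraries had to lie beyond both in every stratum. Against 559 regions that rose and 625 that fell, limma called 205 and 408 with regions in all 16 lists, 328 and 495 with the strongest 30000 peaks, 552 and 594 with the strongest 75000, 120 and 151 with every peak, 541 and 269 with ranking by fold enrichment, 88 and 71 with peaks covering at least 50% of the region, 172 and 230 with normal scores, 480 and 951 with library means subtracted, 111 and 131 with the replicate pair left out, 742 and 1122 with replicates 3 and 4 only, 162 and 198 with P300KO_TET2KO against TET2KO only, 1104 and 1362 with no WT or P300KO replicates 1 and 2. Against 154 genes that rose and 93 that fell, it called 55 and 66 with regions in all 16 lists, 98 and 92 with the strongest 30000 peaks, 173 and 58 with the strongest 75000, 38 and 10 with every peak, 186 and 150 with ranking by fold enrichment, 4 and 1 with peaks covering at least 50% of the region, 31 and 9 with normal scores, 98 and 134 with library means subtracted, 29 and 14 with the replicate pair left out, 175 and 179 with replicates 3 and 4 only, 29 and 18 with P300KO_TET2KO against TET2KO only, 290 and 221 with no WT or P300KO replicates 1 and 2, 29 and 20 with regions within 3 kb of the start only. Within replicates 1 and 2 only, and in P300KO against WT only, limma called 0 regions and 0 genes. At an unadjusted p under 0.05 these had 2494 and 2861 regions higher, 1455 and 2117 lower, 1033 and 1100 genes higher and 352 and 502 lower. With the replicate number as a block, 411 regions rose and 480 fell and 77 genes rose and 39 fell, and the promoter difference was -0.396 points (exact permutation p = 0.492). Same-numbered libraries had correlations of -0.103 to 0.0611 in their deviations within genotype and replicate pair, so the numbers were not taken as pairs. The promoter difference was -3.42 points by fold enrichment and 0.0140 in P300KO_TET2KO against TET2KO. No string passed with peaks covering at least 50% of the region, with the replicate pair left out or with no WT or P300KO replicates 1 and 2 (0, 0 and 0 of 17). Leaving out 1 library in turn gave 251 to 906 regions that rose, 287 to 1129 that fell, 44 to 246 genes that rose, 28 to 154 that fell, 5886 to 6785 and 3871 to 4732 regions of the same sign, 5 to 10 strings that passed and a promoter difference of -0.594 to -0.199 points. All called regions, 1184 in number, became 1982 without WT replicate 1, 594 without WT replicate 3, 675 without WT replicate 4, 619 without P300KO replicate 3, 649 without P300KO replicate 4, 751 without P300KO_TET2KO replicate 2, 685 without TET2KO replicate 3, 587 without TET2KO replicate 4, 642 without P300KO_TET2KO replicate 3, 590 without P300KO_TET2KO replicate 4. Signs turned for the strings and genes Ap1 (-0.158 with regions in all 16 lists, -0.165 with the strongest 30000 peaks, -0.0107 with every peak, -0.311 with ranking by fold enrichment, -0.0721 with peaks covering at least 50% of the region, -0.329 to 0.445 leaving out 1 library), NFkB (0.0944 with the strongest 30000 peaks, -0.731 to 0.297 leaving out 1 library), Mgl2 (-4.78 with every peak), Zfp106 (-0.667 with regions in all 16 lists, -1.11 with the strongest 30000 peaks, -0.439 with ranking by fold enrichment, -0.667 with regions within 3 kb only), Kat5 (-1.54 with ranking by fold enrichment), Crtc3 (-2.04 with regions within 3 kb only), Gata2 (-2.68 with ranking by fold enrichment), Dntt (0.355 with every peak, 1.63 with regions within 3 kb only), Myb (-0.0826 with regions in all 16 lists), Hoxb9 (-0.0370 with normal scores, -0.815 with replicates 3 and 4 only, -0.0258 with no WT or P300KO replicates 1 and 2), Nrarp (0.539 with regions within 3 kb only), Tet2 (-0.0793 with every peak), Rps15 (0.403 with regions in all 16 lists, 0.671 with the strongest 30000 peaks, 0.403 with peaks covering at least 50% of the region, 0.403 with regions within 3 kb only), Notch1 (0.0575 with regions in all 16 lists, 1.95 with the strongest 30000 peaks, 4.17 with ranking by fold enrichment, 3.57 with peaks covering at least 50% of the region, 0.988 with replicates 1 and 2 only, 0.695 with P300KO against WT only, -1.46 to 0.699 leaving out 1 library), Hoxb1 (-0.273 with regions in all 16 lists, -1.27 with the strongest 30000 peaks), Hoxb3 (1.07 with every peak, 0.122 with P300KO against WT only), Hoxb4 (1.24 with regions in all 16 lists, 2.07 with the strongest 30000 peaks, 2.70 with the strongest 75000, 1.87 with every peak, 13.04 with peaks covering at least 50% of the region, 0.126 with normal scores, 2.17 with replicates 3 and 4 only, 0.226 with P300KO_TET2KO against TET2KO only, 0.503 with no WT or P300KO replicates 1 and 2, 0.266 with regions within 3 kb only, -3.26 to 1.13 leaving out 1 library), Hoxb6 (-2.53 with ranking by fold enrichment, -0.366 with P300KO against WT only, -1.60 to 4.39 leaving out 1 library), Hoxb8 (-0.462 with library means subtracted, -1.14 with replicates 3 and 4 only, -0.132 to 1.39 leaving out 1 library). Of these, Mgl2, Zfp106, Kat5 and Rps15 had been called, and the cause was not tested. Read depth is not given in the lists, so a percentile of 0 says only that no peak was in the list.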
